A study of Mus musculus with 6 samples.

Results

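The variable segments of the T cell receptor alpha chain (Trav genes) were described in RNA from CD8+ T cells of mouse spleen. Every row of the deposited table whose gene symbol begins with Trav was taken, which gave 76 of the 19323 genes of the table. GENCODE M21 annotates 128 Trav genes on mm10, all on the plus strand of chromosome 14, and the other 52 were not analysed here. The 76 segments lie between positions 52427928 and 53876752. The annotation calls 67 of them V segment genes and 9 of them V segment pseudogenes. The mice were wild-type C57BL/6 animals, 6 weeks old when a diet was started that lasted 7 weeks. One group received MCDHFD, given to model the fatty liver disease MASH, and the other received ND, and there were 3 libraries of splenic CD8+ T cells for each diet. Whether the libraries of a diet stem from different mice is not stated in the labels, and the p-values reflect the spread among these libraries only, which may be technical.

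An alpha chain gene is assembled in the thymus when the RAG recombinase joins 1 variable segment to a joining segment, and splicing then adds the constant segment Trac. Each T cell clone therefore transcribes one rearranged Trav segment as a rule, with a rearrangement on the other chromosome in many cells, and the pool of Trav transcripts in a tissue reads out which segments its T cells use. The encoded V domain carries the CDR1 and CDR2 loops, which mostly touch the major histocompatibility molecule, and the start of CDR3, which touches the peptide. In C57BL/6 mice the central part of the locus is repeated, and symbols with a d or an n after the family number mark segments of extra copies. Symbols with dv mark segments that can also be joined into delta chains. Segments were placed here in 5 groups by position, 7 of them upstream of the copies, 16 in the D copy, 13 in the N copy, 33 in the copy whose symbols carry no letter (the third copy) and 7 downstream.

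The closeness of these copies bears on every value, and the 90 coding bases that end with the last in-frame TGT codon, which encodes the cysteine at the start of CDR3, show it. The Trav16 family, one of the most abundant, is shown first, at chr14:53743602-53743691 for Trav16, chr14:53351518-53351607 for Trav16n and chr14:53047718-53047807 for Trav16d-dv11 (mm10, plus strand, 5′ to 3′). Capitals mark the 2 positions at which the 3 sequences differ.
Trav16: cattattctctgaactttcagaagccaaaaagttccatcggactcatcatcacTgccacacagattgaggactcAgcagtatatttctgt
Trav16n: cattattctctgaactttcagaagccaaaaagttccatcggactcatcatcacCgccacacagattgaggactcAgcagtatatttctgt
Trav16d-dv11: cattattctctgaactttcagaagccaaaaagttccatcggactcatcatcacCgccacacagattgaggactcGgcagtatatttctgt

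The Trav14 family is shown because its share of the Trav pool was lower in every MCDHFD library than in every ND library, and was chosen after that was seen. Capitals mark the 7 positions that differ among its 5 segments analysed here, which lie at chr14:53554459-53554548, chr14:53641126-53641215, chr14:53763595-53763684, chr14:53370476-53370565 and chr14:53078946-53079035, in the order printed.
Trav14-1: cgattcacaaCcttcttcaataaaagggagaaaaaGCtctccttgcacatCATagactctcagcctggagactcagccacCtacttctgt
Trav14-2: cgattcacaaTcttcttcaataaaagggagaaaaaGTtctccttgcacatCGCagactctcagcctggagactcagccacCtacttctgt
Trav14-3: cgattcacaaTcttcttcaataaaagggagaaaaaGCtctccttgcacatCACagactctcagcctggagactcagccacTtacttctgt
Trav14n-3: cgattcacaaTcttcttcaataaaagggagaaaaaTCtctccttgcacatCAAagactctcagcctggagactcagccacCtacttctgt
Trav14d-3-dv8: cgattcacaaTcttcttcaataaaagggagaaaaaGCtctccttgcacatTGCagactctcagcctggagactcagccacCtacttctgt

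In the Trav12 family the window is the same in Trav12-1, Trav12-2 and Trav12-3, and it is printed once, from Trav12-2 at chr14:53616814-53616903, as the family whose share stood higher in MCDHFD.
Trav12-2: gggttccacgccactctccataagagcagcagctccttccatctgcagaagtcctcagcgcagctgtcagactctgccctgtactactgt

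By contrast, Trav7-1, which lies upstream of the copies, and Trav7-5, in the third copy, differ at 13 positions of the window, marked by capitals, at chr14:52655229-52655318 and chr14:53531214-53531303. Their shares stood on opposite sides between the diets.
Trav7-1: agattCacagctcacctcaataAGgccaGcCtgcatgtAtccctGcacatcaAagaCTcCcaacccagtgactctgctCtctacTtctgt
Trav7-5: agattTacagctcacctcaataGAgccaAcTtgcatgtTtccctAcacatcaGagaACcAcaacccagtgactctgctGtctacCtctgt

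The way reads were assigned among such copies is not stated in the labels or files used here. The values of single segments are uncertain where copies are near-identical, and sums over families are less so. Such sums hold only the segments analysed here. That of Trav12 lacks all its D and N segments, and that of Trav14 lacks Trav14d-1, Trav14d-2, Trav14n-1 and Trav14n-2. Over whole transcripts, a median of 56.5% of the stretches of 50 bases of a measured segment occur in no other annotated Trav transcript, and none of the 76 segments lacks such a stretch. Of the 52 segments not analysed here, 39 have no such stretch and the median is 0%. Among the measured segments, 12 have under 25% of their 50-base stretches to themselves.

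**Figure D1:**
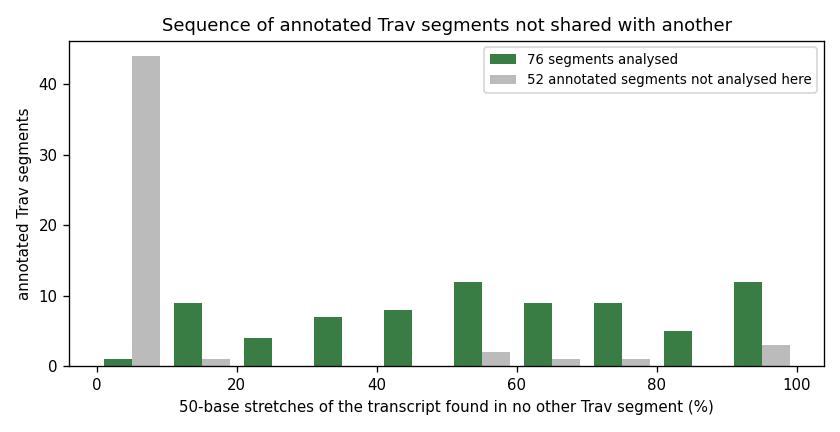
Number of annotated Trav segments (vertical axis) by the percent of the 50-base stretches of their transcripts that occur in no other Trav transcript (horizontal axis, bins of 10 points), for the 76 segments analysed and the 52 not analysed here. The segments not analysed here crowd at the low end, where 39 of 52 have no stretch of their own.

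The summed level of all Trav segments was lower after MCDHFD on the deposited scaling, though not relative to Trac or Cd8a. It was 1103, 965 and 950 normalized counts in the 3 MCDHFD libraries, against 2154, 2264 and 2240 in the 3 ND libraries. The diets did not overlap, and the spread within each was small beside the distance between them. The means were 1006 ± 84.5 normalized counts in MCDHFD and 2219 ± 57.9 in ND (SD, n = 3 each), so that ND held 2.21 times the MCDHFD level, a log2 ratio of -1.14. No p is given for this sum, because it is a score over the segments. In bulk RNA, fewer cells of a type and less RNA per cell cannot be told apart.

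Trac, the constant segment that every alpha chain transcript shares, fell by nearly the same amount. Trac measured 3966, 3332 and 3451 normalized counts in MCDHFD libraries, against 7984, 8423 and 8030 in ND libraries (log2 fold change -1.19, SE 0.07, limma adjusted p = 1.59e-06). As a proportion of Trac, the Trav sum was 27.8%, 29.0% and 27.5% in MCDHFD libraries and 27.0%, 26.9% and 27.9% in ND libraries, and the diets overlapped. These are percentages of normalized counts, not of molecules, since Trac is longer than a Trav segment and 52 segments are not in the sum.

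Other T cell genes gave other proportions. The Trav sum was 20.5% ± 0.776 of the summed beta chain constant segments Trbc1 and Trbc2 in MCDHFD and 22.2% ± 0.285 in ND (SD, n = 3 each), lower in each MCDHFD library. It was 54.7% ± 2.06 of Cd3e, a signalling chain of the receptor complex, in MCDHFD and 60.6% ± 4.2 in ND, again lower in each MCDHFD library. Against Cd8a, the CD8 coreceptor chain, the order turned, at 19.1% ± 0.635 in MCDHFD and 16.1% ± 0.793 in ND. The Trav sum thus stood 1.08 times higher in ND relative to Trbc and 1.11 times higher in ND relative to Cd3e, but higher in MCDHFD relative to Cd8a.

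**Figure D2:**
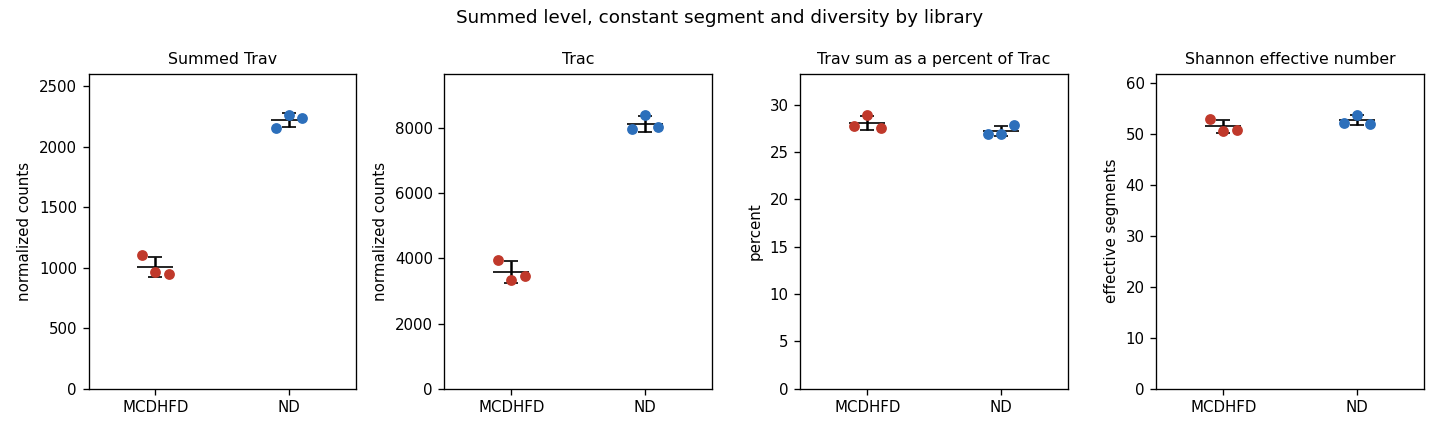
Summed Trav level and Trac level (normalized counts), the Trav sum as a percent of Trac, and the Shannon effective number of segments (vertical axes), for each library of MCDHFD (red, left) and ND (blue, right), with means and SD bars, n = 3 each. The first 2 panels separate the diets and the last 2 do not.

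Of the 76 segments, 52 had a mean of at least 10 normalized counts over the 6 libraries and were tested with limma over all 13430 such genes. After Benjamini-Hochberg adjustment at 0.05, 42 of the 52 were lower in MCDHFD and 0 were higher, against 28.1% of all tested genes called lower, 30.3% called higher and 58.4% called in either direction. At an unadjusted p under 0.05 there were 45 lower and, since all 52 fold changes were below 0, none higher; edgeR and DESeq2 on the recovered reads also called 0 higher. The median log2 fold change of the 52 was -1.12 and that of all tested genes 0.00. The fold changes ran from -1.61 in Trav8-1 to -0.45 in Trav7d-3. In 47 of the 52 segments every MCDHFD library lay below every ND library, against 32.3% of all tested genes, and in the other 5 the diets overlapped. The count of lower segments was 22 with DESeq2 on the recovered reads of 5 libraries, and 0 when every library was scaled to an equal Trac level.

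The filter on the mean let some segments in through ND alone, where levels were higher. Of the 52, 43 also had a mean of at least 10 in MCDHFD, and 36 of these were called lower with a median log2 fold change of -1.09. The 24 segments that were not tested summed to 61.7 normalized counts in MCDHFD and 145 in ND. Their highest value in any library was 21.8, in Trav13d-1, and 22 of them had a lower mean in MCDHFD. Just above the filter, Trav9-1 averaged 7.86 in MCDHFD and 17 in ND, and just below it Trav6-4 averaged 5.40 in MCDHFD and 13.1 in ND. Trav13d-1, also just below it, averaged 6.82 ± 5.51 in MCDHFD and 12.5 ± 8.06 in ND.

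**Figure D3:**
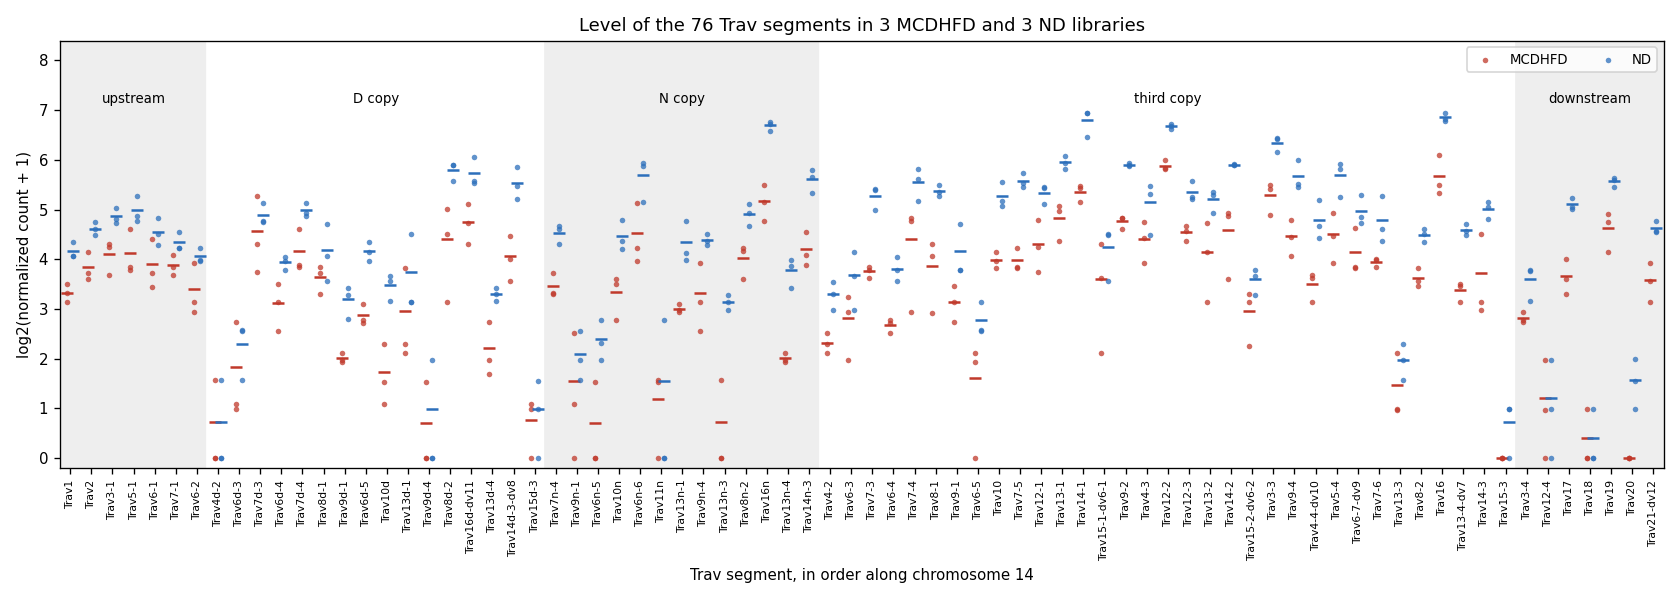
Level of each of the 76 Trav segments (log2 of the normalized count plus 1) in order along chromosome 14, with 3 MCDHFD libraries in red, 3 ND libraries in blue, and bars at the mean of each diet. Shading separates the 5 groups by position; the MCDHFD points lie below the ND points in 47 of the 52 tested segments.

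Of the segments, 5 had a mean of at least 50 normalized counts over the 6 libraries, namely Trav16, Trav12-2, Trav14-1, Trav16n and Trav3-3, and all fell. Trav16 measured 67.8, 44.2 and 39.1 normalized counts in MCDHFD libraries, against 122, 113 and 109 in ND libraries (log2 fold change -1.21, SE 0.22, limma adjusted p = 0.00125). Trav14-1 measured 42.4, 43.2 and 34.7 in MCDHFD libraries, against 87.1, 122 and 122 in ND libraries (log2 fold change -1.43, SE 0.20, limma adjusted p = 0.000267). In both, the highest MCDHFD library lay well under the lowest ND library.

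Trav12-2 showed the smallest fall of the 5, with 55.5, 62.9 and 55.9 normalized counts in MCDHFD libraries, against 96.9, 104 and 102 in ND libraries (log2 fold change -0.79, SE 0.15, limma adjusted p = 0.00156). Trav16n showed the largest, with 26.4, 44.2 and 34.7 in MCDHFD libraries, against 95.0, 108 and 105 in ND libraries (log2 fold change -1.55, SE 0.21, limma adjusted p = 0.000278). Trav16n and Trav16 differ at a single position of the window printed above, and the difference between their fold changes was not tested. Trav3-3 had 44.2, 28.5 and 41.4 in MCDHFD libraries and 70.5, 84.6 and 86.1 in ND libraries (log2 fold change -1.08). The next segments by mean all fell as well. Trav13-1 had a log2 fold change of -1.14, Trav9-2 of -1.15, Trav14-2 of -1.43, Trav16d-dv11 of -1.01 and Trav8d-2 of -1.57.

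Levels of different segments can be set side by side only per length of transcript. On normalized counts per kilobase, Trav12-2 stood at 136 ± 9.73 in MCDHFD and 237 ± 8.65 in ND, Trav16 at 120 ± 36.4 in MCDHFD and 273 ± 16.5 in ND, and Trav14-1 at 100.5 ± 11.8 in MCDHFD and 276 ± 49.99 in ND. These 3 held the first ranks in MCDHFD, in that order, while in ND the order was Trav14-1, Trav16, Trav16n and Trav12-2. Neighbours in these orders differed by less than the larger of their SDs, except Trav16 and Trav16n in ND. Among the tested segments the per-kilobase level spanned 8.09-fold from the lowest to the highest. Across the 76 segments, the level per kilobase had a Spearman correlation of 0.10 with the percent of unshared 50-base stretches, a description over segments that share the same libraries.

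The level test was not passed by 10 tested segments, and their means over the 6 libraries ran from 11.04 to 27.4 normalized counts. Among them were 3 of the 7 upstream segments, Trav6-1, Trav7-1 and Trav6-2. Trav7-1 measured 16.0, 11.8 and 13.4 in MCDHFD libraries, against 17.6, 22.4 and 17.8 in ND libraries (log2 fold change -0.46, SE 0.29, limma adjusted p = 0.202). The diets did not overlap in Trav7-1, although the gap between them was narrow. In the D copy the segments that did not pass were Trav7d-3, Trav6d-4 and Trav8d-1. Trav7d-3 varied most within MCDHFD, at 37.6, 18.7 and 12.3 normalized counts, against 34.3, 26.3 and 25.7 in ND libraries (log2 fold change -0.45, SE 0.39, limma adjusted p = 0.353). Without MCDHFD replicate 1, which held its highest value, Trav7d-3 had a log2 fold change of -0.87 and limma adjusted p = 0.0469. Trav6-2 (limma adjusted p = 0.0418) and Trav6d-4 (0.0454) also passed without that library, and Trav6-1 passed without MCDHFD replicate 3 (0.0487).

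In the third copy, Trav15-1-dv6-1, Trav9-1, Trav4-3 and Trav7-6 did not pass. Trav4-3 measured 14.1, 20.6 and 25.7 normalized counts in MCDHFD libraries, against 21.5, 38.9 and 43.5 in ND libraries (log2 fold change -0.73, SE 0.34, limma adjusted p = 0.0983). The diets overlapped in it. Without ND replicate 1, Trav4-3 had a log2 fold change of -1.03 and limma adjusted p = 0.0296, and Trav7-6 one of -0.99 with 0.0382. With quantile scaling, Trav6-1, Trav6d-4, Trav9-1, Trav4-3 and Trav7-6 passed as lower, with limma adjusted p from 0.0234 to 0.0499. A p that misses the threshold does not show that these 10 segments kept their level.

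The question of segment usage was asked by scaling each library to the same summed Trav level and repeating the limma fit. No segment passed: 0 of 52 were higher and 0 lower, with 0 at an unadjusted p under 0.05, where the smallest was 0.0750 in Trav7-1. On that scale 88.5% of all tested genes were called, 85.9% as higher and 2.62% as lower, because the scaling raises every MCDHFD library about as much as its Trav sum was low. The usage log2 fold changes ran from -0.52 in Trav8-1 to 0.65 in Trav7d-3, with 24 above 0 and 28 below. Across the 52, the usage fold change had a Spearman correlation of 0.30 with the percent of unshared 50-base stretches, a description over segments of the same libraries. The precision is limited. The median 95% interval reached 0.72 on the log2 scale to either side, or 1.65-fold, and in 29 of the 52 segments the whole interval lay within 1 log2 unit of 0.

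Leaving out single MCDHFD libraries gave a few usage calls, a different set each time. Without MCDHFD replicate 1, Trav12-2 was higher (log2 fold change 0.44, limma adjusted p = 0.0291) and Trav14-3 lower (-0.83, adjusted p = 0.0333). Without MCDHFD replicate 2, Trav16n was lower (-0.63, adjusted p = 0.0313). Without MCDHFD replicate 3, Trav7d-3 was higher (0.97, adjusted p = 0.0233) and Trav8d-2 lower (-0.91, adjusted p = 0.0433). None of these passed with all libraries, and no usage call appeared when an ND library was left out. The adjustment ran over all tested genes, most of which were called on this scale. Adjusted p therefore lay close to limma's unadjusted p, which was 0.0254 for Trav12-2 and 0.0372 for Trav8d-2. It corrects little for the number of segments tested.

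**Figure D4:**
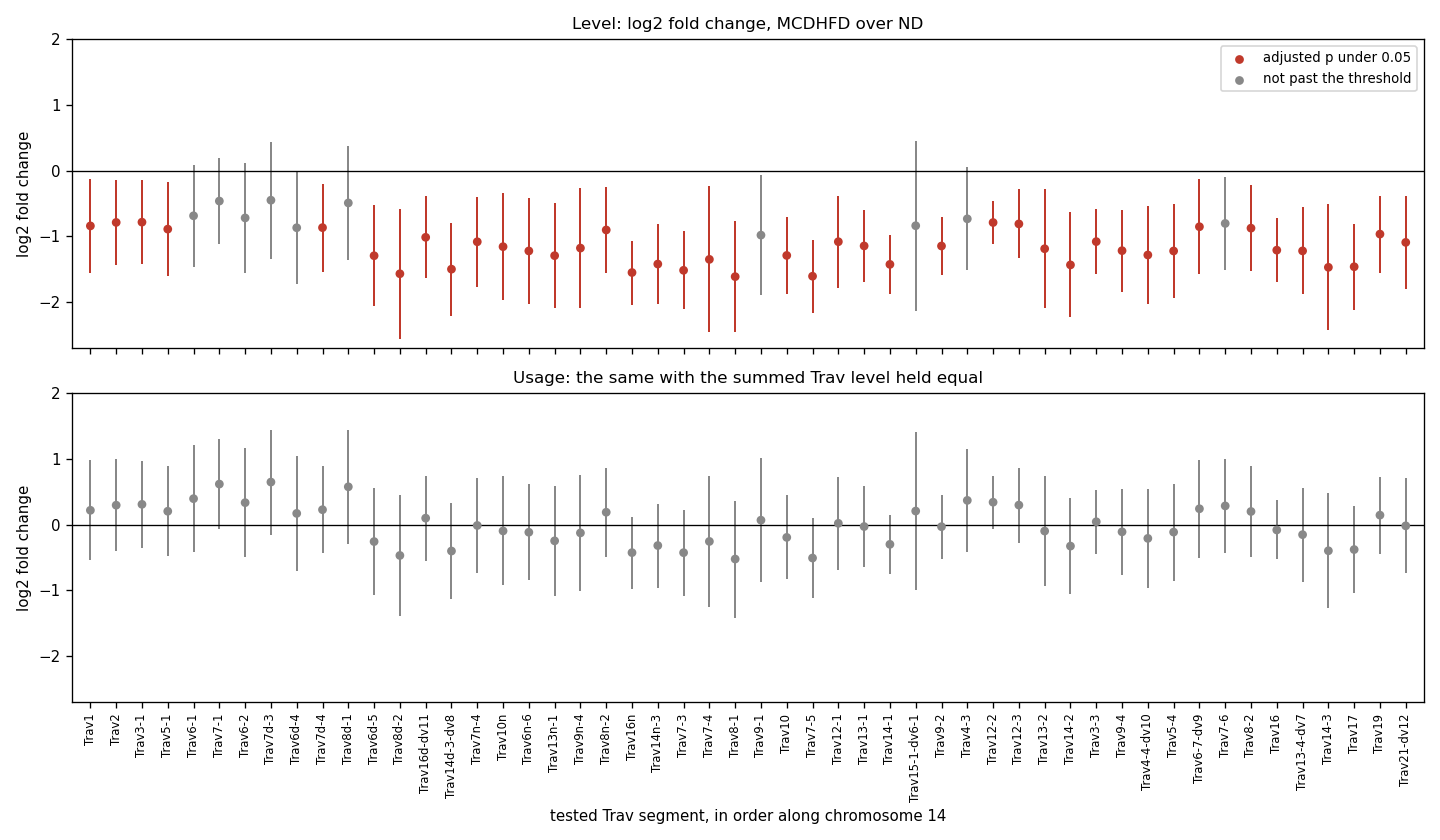
Log2 fold change of MCDHFD over ND with its 95% interval for the 52 tested segments, in order along chromosome 14, for the level (upper panel) and for usage with the summed Trav level held equal (lower panel). In the upper panel 42 segments pass the threshold, all below 0; in the lower panel the points scatter around 0 between -0.52 and 0.65 and none passes.

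As shares of the summed Trav level, which are not corrected for length, 48 of the 52 tested segments overlapped between the diets. Trav12-2 and Trav7-1 stood higher in every MCDHFD library and Trav7-5 and Trav17 lower, against 86.1% of all tested genes higher and 3.05% lower on the same scale. Trav12-2 took 5.03%, 6.52% and 5.89% of the Trav sum in MCDHFD libraries, against 4.50%, 4.60% and 4.55% in ND libraries. Its usage log2 fold change was 0.34 with an interval from -0.06 to 0.74 (limma adjusted p = 0.097). Counting error alone gave 95% Wilson intervals of 3.92% to 6.44%, 5.14% to 8.24% and 4.50% to 7.68% in MCDHFD replicates 1 to 3. They were 3.71% to 5.45% in ND replicate 1 and 3.82% to 5.53% in ND replicate 2, and each MCDHFD interval overlapped both.

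Trav7-1 took 1.45%, 1.22% and 1.41% of the Trav sum in MCDHFD libraries, against 0.818%, 0.988% and 0.795% in ND libraries (usage log2 fold change 0.62, interval -0.07 to 1.31). Trav7-5, with 13 differences from it in the printed window, took 1.19%, 1.83% and 1.41% in MCDHFD libraries, against 2.09%, 1.89% and 2.34% in ND libraries (usage log2 fold change -0.51, interval -1.12 to 0.11). Trav17, downstream of the copies, took 1.37%, 0.916% and 1.18% in MCDHFD libraries, against 1.5%, 1.38% and 1.64% in ND libraries. In the level itself, Trav7-5 (log2 fold change -1.61) and Trav17 (-1.46) were among the larger falls. Trav7-5 and Trav17 were singled out after their values were seen, and the share differences of all 4 rest on 9 to 107 reads a library in the libraries with recovered reads.

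Across all 76 segments the mean shares in MCDHFD and in ND had a Pearson correlation of 0.96 and a Spearman correlation of 0.96, a description over segments of the same libraries. The 10 segments of highest mean took 34.3% ± 1.58 of the Trav sum in MCDHFD and 35.8% ± 0.503 in ND (SD, n = 3 each). The change of a single mean share reached at most 1.26 points upward, in Trav12-2, and 1.08 points downward, in Trav16n. The share that would have to move between segments to turn one library into another was 17.98% to 19.6% within MCDHFD, 13.4% to 15.9% between the diets and 8.34% to 11.05% within ND. Libraries of the MCDHFD group were thus farther from each other than from ND libraries. They also held fewer Trav reads, 849 to 1172, against 2200 and 2327 in the ND libraries whose reads were recovered, and the part of that depth in these distances was not tested.

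Diversity of usage overlapped between the diets. The Shannon effective number, which is the number of equally used segments that would give the observed entropy, was 53.0, 50.6 and 50.8 in MCDHFD libraries, against 52.2, 53.7 and 51.98 in ND libraries. The inverse Simpson number, which weighs abundant segments more, averaged 41.6 ± 1.40 in MCDHFD and 42.4 ± 0.349 in ND. With the Trav reads of each library thinned in expectation to 849, the Shannon number averaged 51.1 in 3 MCDHFD libraries and 51.5 in 2 ND libraries, and the inverse Simpson number without counting bias was 43.4 in both diets. Segments above 0 numbered 70, 70 and 67 in MCDHFD libraries and 72, 75 and 70 in ND libraries. Pooled into the 21 families, the effective number was 13.95 ± 0.215 in MCDHFD and 13.7 ± 0.346 in ND. No p is given for these scores.

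By position along the locus, the sums of all 5 groups were lower in MCDHFD but by unequal amounts. The 7 upstream segments, Trav1 to Trav6-2, took 9.73%, 8.15% and 9.66% of the Trav sum in MCDHFD libraries, against 7.05%, 6.79% and 7.38% in ND libraries. Their summed level was 92.5 ± 14.4 normalized counts in MCDHFD and 157 ± 7.32 in ND, 1.70 times higher in ND. All 7 usage fold changes were above 0, against 24 of all 52 tested segments. These 7 have 64.6% (Trav3-1) to 100% (Trav1) of their 50-base stretches unshared, against a median of 56.5% of the measured segments. The part of this in their share was not tested. Of the 7, 4 passed the level test as lower, against 28.1% of all tested genes. The 95% Wilson interval of the upstream share, for counting error only, was 8.16% to 11.6%, 6.59% to 10.03% and 7.85% to 11.8% in MCDHFD replicates 1 to 3. It was 6.05% to 8.19% in ND replicate 1 and 5.84% to 7.88% in ND replicate 2. Each MCDHFD interval overlapped that of ND replicate 1, that of MCDHFD replicate 1 only barely. The interval of MCDHFD replicate 1 lay above that of ND replicate 2, and those of MCDHFD replicates 2 and 3 overlapped it. These segments lie farthest from the joining segments.

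The N copy went the other way, with 13.5%, 13.1% and 12.8% of the Trav sum in MCDHFD libraries, against 15.6%, 15.9% and 14.8% in ND libraries. Its summed level was 2.59 times higher in ND, at 132 ± 14.3 normalized counts in MCDHFD and 343 ± 15.5 in ND. All 8 of its tested segments were called lower, against 28.1% of all tested genes. Wilson intervals of the N copy share reflect counting error only. They were 11.6% to 15.6%, 11.2% to 15.4% and 10.8% to 15.3% in MCDHFD replicates 1 to 3. In ND replicate 1 the interval was 14.1% to 17.2% and in ND replicate 2 it was 14.5% to 17.5%. Each MCDHFD interval overlapped both ND intervals. The D copy, whose segments are close in sequence to those of the N copy, took 14.6% ± 3.04 in MCDHFD and 13.9% ± 1.54 in ND, and overlapped. The part of read assignment between close copies in the N copy share was not tested. The third copy took 57.7% ± 4.53 in MCDHFD and 58.3% ± 1.86 in ND, and the 7 downstream segments 5.36% ± 0.553 in MCDHFD and 5.34% ± 0.227 in ND, both with overlap. No test was run on these 5 shares.

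By family number, 18 of 21 families had an ND sum of at least 10 normalized counts. The sums of all 18 were lower in MCDHFD, with ND 1.65 to 2.85 times higher. As shares of the Trav sum, 13 families overlapped between the diets, 1 was higher in every MCDHFD library and 4 were lower. Of the 52 tested segments, 2 were higher and 2 lower in this way, Trav12-2 and Trav17 among them. On the same scale 86.1% of all tested genes were higher and 3.05% lower. No test was run on the family shares, and with 3 libraries a diet an exact permutation p cannot fall under 0.1. Trav12 was the higher family, at 8.79%, 11.6% and 9.78% in MCDHFD libraries, against 8.27%, 8.17% and 8.13% in ND libraries. Its D and N segments are not in these shares. Trav14 took 11.2%, 10.8% and 10.2% in MCDHFD libraries, against 12.7%, 13.2% and 13.7% in ND libraries. All 5 Trav14 segments printed above were called lower in level, with log2 fold changes from -1.499 to -1.42. That stands against 42 of the 52 tested segments and 28.1% of all tested genes. The Trav16 family took 11.1% ± 0.236 in MCDHFD and 12.2% ± 0.839 in ND, and Trav10 took 2.63% ± 0.282 in MCDHFD and 3.12% ± 0.165 in ND. The last of the 4 was Trav17, a family of 1 segment described above.

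**Figure D5:**
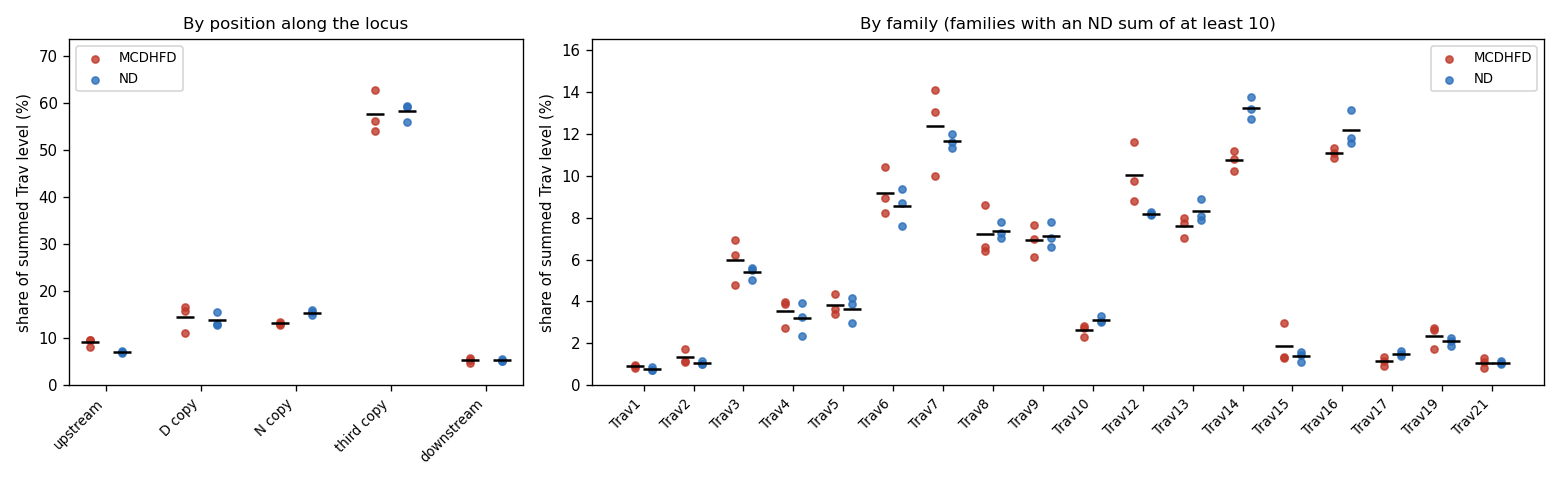
Share of the summed Trav level (percent) of the 5 groups by position (left) and of the 18 families with an ND sum of at least 10 normalized counts (right), with each MCDHFD library in red left of each ND library in blue and black bars at the means. The upstream group and Trav12 stand higher in MCDHFD, and the N copy, Trav10, Trav14, Trav16 and Trav17 lower; the other groups overlap.

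A set of 8 measured segments carries dv in their symbol and can serve alpha or delta chains. Together they took 10.7% ± 1.07 of the Trav sum in MCDHFD and 10.4% ± 0.450 in ND, and the diets overlapped. Of these, 7 were tested and 6 were lower, against 36 of the 45 tested segments without dv and 28.1% of all tested genes. Trav14d-3-dv8 measured 15.1, 10.8 and 21.3 normalized counts in MCDHFD libraries, against 56.8, 36.0 and 43.5 in ND libraries (log2 fold change -1.499, SE 0.31, limma adjusted p = 0.00291). Trav16d-dv11 (log2 fold change -1.01), Trav4-4-dv10 (-1.28), Trav13-4-dv7 (-1.22), Trav21-dv12 (-1.09) and Trav6-7-dv9 (-0.85) were the others that fell. Trav15-1-dv6-1 ranged from 3.36 to 18.7 in MCDHFD and from 10.8 to 21.8 in ND and did not pass (limma adjusted p = 0.237). Trav15-2-dv6-2 was under the filter, at 6.81 ± 2.69 in MCDHFD and 11.1 ± 2.13 in ND. The calls of Trav6-7-dv9 were lost without any one of 5 libraries, with limma adjusted p from 0.0587 without ND replicate 1 to 0.154 without ND replicate 2, and also 0.111 without MCDHFD replicate 1, 0.121 without MCDHFD replicate 3, 0.0777 without ND replicate 3 and 0.0653 with no filter on the mean. That of Trav21-dv12 was lost without ND replicate 2 (0.0555). With DESeq2 on recovered reads the calls of Trav6-7-dv9 (adjusted p = 0.144), Trav4-4-dv10 (0.107), Trav13-4-dv7 (0.0536) and Trav21-dv12 (0.0903) were lost, and with edgeR that of Trav6-7-dv9 (0.0737).

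Trdc, the constant segment of the delta chain, measured 86.6, 49.1 and 70.5 normalized counts in MCDHFD libraries, against 191, 131 and 137 in ND libraries (log2 fold change -1.16, SE 0.23, limma adjusted p = 0.00247). Its level was far below that of Trac in both diets. Which share of the dv transcripts belonged to delta chains was not tested.

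Some innate-like T cells use a fixed alpha chain in mice, with Trav11 segments in natural killer T cells and Trav1 in mucosal-associated invariant T cells. Trav11 and Trav11d were not analysed here, and Trav11n, a pseudogene, measured 1.28 ± 1.11 in MCDHFD and 1.95 ± 3.37 in ND. Trav1 measured 10.4, 7.86 and 8.95 normalized counts in MCDHFD libraries, against 15.7, 19.5 and 15.8 in ND libraries (log2 fold change -0.84, SE 0.31, limma adjusted p = 0.0455). The diets did not overlap, but the call was lost without MCDHFD replicate 2 (0.105), MCDHFD replicate 3 (0.0915), ND replicate 1 (0.0798), ND replicate 2 (0.142) or ND replicate 3 (0.0818), with no filter on the mean (0.0669), and with edgeR (0.0616) and DESeq2 (0.216) on recovered reads. As a share of the Trav sum, Trav1 took 0.899% ± 0.0726 in MCDHFD and 0.765% ± 0.0828 in ND, with overlap. Of 4 genes taken as markers of innate-like T cells (Zbtb16, Klrb1c, Slamf6 and Cd1d1), 2 were higher and 1 lower in MCDHFD. Klrb1c was also taken as an NK cell marker. Their sums overlapped, at 3167 to 3447 normalized counts in MCDHFD and 3304 to 3497 in ND, and Zbtb16 was a small part of them. Zbtb16, a transcription factor of these lineages, was one of the 2 that were higher, at 171, 172 and 195 normalized counts in MCDHFD libraries, against 9.79, 22.4 and 18.8 in ND libraries (log2 fold change 3.40, SE 0.28, limma adjusted p = 1.33e-05).

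The 9 pseudogenes summed to 19.0 ± 3.05 normalized counts in MCDHFD and 35.3 ± 4.83 in ND. Of these, 8 had a mean under 3. The exception was Trav8-2, at 13.2, 10.8 and 10.1 in MCDHFD libraries, against 23.5, 19.5 and 21.8 in ND libraries (log2 fold change -0.87, SE 0.29, limma adjusted p = 0.0269). Trav20 and Trav15-3 were at 0 in every MCDHFD library, but their ND means, 1.96 and 0.654, lay under the floor of 3 counts.

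A list of 15 genes of the T cell receptor complex and its assembly also held constant segments of the delta and gamma chains. Of the 15, 9 were tested, Trdc among them. All 9 were lower in MCDHFD, against 28.1% of all tested genes, with a median log2 fold change of -0.997. The beta chain constant segments fell about as much as the Trav sum, with log2 fold changes of -0.98 in Trbc1 and -1.04 in Trbc2. The signalling subunits fell unequally, with log2 fold changes of -1.49 in Cd3g, -0.997 in Cd3e, -0.72 in Cd3d and -0.69 in Cd247, which encodes the zeta chain. With the summed Trav level held equal, Cd3d (log2 fold change 0.43, limma adjusted p = 0.00176) and Cd247 (0.45, adjusted p = 0.000319) were higher and Cd3g lower (-0.34, adjusted p = 0.00146). Dntt, the terminal transferase that adds bases at V-J joins, measured 43.3, 27.5 and 62.6 in MCDHFD libraries, against 75.4, 97.3 and 67.3 in ND libraries (log2 fold change -0.89, limma adjusted p = 0.0286). The call of Dntt was lost without MCDHFD replicate 1 (0.0561), MCDHFD replicate 2 (0.0762), ND replicate 1 (0.0600) or ND replicate 2 (0.0985). Rag1 and Ptcra, the pre-T alpha chain of thymocytes, were at 0 in all MCDHFD libraries and reached at most 1.95 and 2.94 in ND libraries. Trgc1, Trgc2, Trgc4 and Rag2 were not analysed here.

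Markers of T cells and of other cells also differed between the diets, in both directions. Their counts stand against 28.1% of all tested genes called lower and 30.3% called higher. The 10 markers of CD8 T cells were all lower and summed to 30472 to 34708 normalized counts in MCDHFD, against 72614 to 75202 in ND. Among them, Trac, Cd3d, Cd3e and Cd3g were already counted in the T cell receptor list. All 7 macrophage markers were higher, with 144639 to 178663 in MCDHFD and 29760 to 36253 in ND. All 5 neutrophil markers were higher (7511 to 13229 in MCDHFD and 627 to 1162 in ND), as were all 5 erythroid markers (7927 to 14230 in MCDHFD and 1532 to 1577 in ND) and 3 of 4 plasma cell markers. All 5 B cell markers, 4 of 5 CD4 T cell markers, 4 of 5 dendritic cell markers, the 2 gamma delta T cell markers tested of 6, and 1 of the 2 tested of 4 NK cell markers were lower. Cd4 itself did not pass (log2 fold change 0.18, limma adjusted p = 0.258). It measured 276, 349 and 367 normalized counts in MCDHFD libraries, against 288, 323 and 258 in ND libraries. The 4 markers of innate-like T cells are given above with Trav1. No measured marker of any list was at 0 in every library, and the part of these cells in the Trav levels was not tested.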

How the data were processed

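Libraries were made from total RNA of splenic CD8+ T cells with one of 2 kits, for whole RNA or for mRNA, per the labels' protocols. Reads were placed on mm10, per the submitters' processing notes. Aligner, counter, strand setting and annotation, and which kit each library had, are not given in the labels or files used here. The table of the authors holds a signal, read counts scaled per library (normalized counts), per the file headers. They summed to 14119816 to 14752121 per library. In 5 libraries every value was a whole multiple of 1 read at a tolerance of 0.01, giving 13188812 to 15482458 reads. ND replicate 3, whose step lies near 1, stayed out of count tests.

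Symbols were matched for 19202 genes. Values were tested on log2(value + 1) with limma 3.58.1 (trend) in R 4.3.3, for genes with a mean of at least 10, with Benjamini-Hochberg adjustment over all of them at 0.05. Fold changes on that scale understate those of low genes. Usage was the same fit with equal summed Trav levels. edgeR 4.0.16 and DESeq2 1.42.0 on recovered reads, other scalings, filters, pseudocounts, a replicate block and each library left out were alternatives. Diversity was computed from shares of the Trav sum. Sequences come from GENCODE M21 transcripts and mm10. Wilson intervals and floors (3 counts) reflect counting error alone, because sequenced reads need not be independent molecules, and intervals of fold changes are limma's, from the spread among libraries. Between same-diet libraries with recovered reads, chi-square divided by its degrees of freedom was 5.2 to 9.55 over all genes in the 4 pairs, more than sampling noise, and 1.10 to 1.78 over the Trav segments alone. Correlations of log2 values were 0.985 to 0.988 within a diet and 0.896 to 0.916 between diets.

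The segments and gene lists were chosen with earlier results of these data known. Named segments were the 10 of highest mean, those of extreme usage change with a mean of at least 50, Trav1, Trav11 and Trav11d, the dv segments, tested segments that did not pass, those next to the filter and the T cell receptor list.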

Additional observations from a re-analysis of the deposited data

How the results depend on the processing

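The count of 42 segments lower in MCDHFD was 43 with no filter and 5 with a filter of a mean of 50, which left 5 segments to test. On recovered reads of 5 libraries it was 30 with edgeR, 29 of them shared, and 22 with DESeq2. With an equal Trac level or an equal summed Trav level it was 0. Leaving out each library gave 28 to 43, with 24 segments called every time, and the count of higher segments was 0 under every alternative. The usage count of 0 became 1 with no filter (Trav13n-3) and 0 to 2 with a library left out. The log2 ratio of the summed level, -1.14, was -1.31 with quantile scaling, which moves the median of all genes to -0.08. It was 0.044 relative to Trac, -0.11 relative to Trbc1 plus Trbc2, -0.15 relative to Cd3e and 0.25 relative to Cd8a, and -1.21 to -1.10 with a library left out. The ratios to Trbc, Cd3e and Cd8a were added after seeing the data. The 9 lower receptor genes became 1 lower and 2 higher with an equal Trac level, which holds Trac itself fixed. With a library left out, 8 or 9 were lower. The difference in Shannon effective number, -1.17, was 0.21 over families and -1.92 to -0.62 with a library left out. The upstream share difference, 2.11 points, was 1.83 to 2.62 points with a library left out. Whether the replicate numbers pair the samples is not stated in the labels. Same-number correlations of deviations were 0.04, 0.06 and 0.01, too near 0 to settle it. Each MCDHFD library correlated best with the ND library of its own number. ND replicate 3, however, correlated best with MCDHFD replicate 1 (0.02). A replicate block gave 37 lower segments and 0 usage calls, without Trav1 (limma adjusted p = 0.0857) and with Trav4-3 (0.0469). Of 657 results of single named genes under alternatives, 614 kept their side of the threshold, 26 lost it, 17 gained it and 0 reversed. This tally leaves out the equal Trac level. There, no segment was called and the median log2 fold change of the tested segments was 0.02. The causes were not tested. With 849 to 2327 Trav reads a library, usage differences under about 1.65-fold were mostly not detectable.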
